A study of Rattus norvegicus with 288 samples.

Results

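Transcripts of genes of cholesterol synthesis and uptake were followed in the liver, heart and bone marrow of rats given the mTOR inhibitor temsirolimus, an inhibitor of receptor tyrosine kinases (sunitinib or sorafenib), or both. The 8 genes Idi1, Sqle, Srebf2, Hmgcs1, Insig1, Fdps, Lss and Tmem97 were chosen by their symbols from genes already looked at in these data, and each was compared between treatments on the probe set with its symbol alone and the highest mean in the tissue. Of the 8, 7 had such a probe set among 14218 genes, and Hmgcs1 was not analysed here. Which earlier result led to the choice is not given, so the p-values of these genes describe the comparisons below and are not independent evidence about them. The arrays were 288, from 96 male Sprague-Dawley rats aged 7 to 8 weeks, each of which gave all 3 tissues. Each rat received temsirolimus at 0.3 mg/kg intravenously or its vehicle (TEM_vehicle), and 30 minutes later sorafenib at 25 mg/kg, sunitinib at 5 mg/kg, F68/PG/PEG400 or sterile water by mouth. F68/PG/PEG400 is the vehicle of sorafenib and sterile water that of sunitinib. Rats were killed 1, 6 or 24 h after dosing, with 4 rats in each of the 8 treatments at each time, and they had food and water throughout. The tissues were whole samples (marrow flushed from a femur, the apex of the heart with both ventricles, pieces of 2 lobes of the liver), in which fewer cells of a type and less RNA per cell cannot be told apart.

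Cells make cholesterol from acetyl-CoA and also take it up from lipoproteins in the blood. Srebf2 encodes SREBP-2, a transcription factor that is held in the membrane of the endoplasmic reticulum with its escort SCAP. When sterols are plentiful, the INSIG proteins (Insig1, Insig2) keep the complex there. When sterols run low, it moves to the Golgi, the proteases encoded by Mbtps1 and Mbtps2 release its active part, and that part raises genes of synthesis and uptake along with Srebf2 and Insig1 themselves. Among the enzymes, Idi1 isomerises isopentenyl diphosphate, Fdps joins isoprene units into farnesyl diphosphate, Sqle oxidises squalene, and Lss closes the ring to lanosterol. Tmem97, the sigma-2 receptor, is a membrane protein of the endoplasmic reticulum and lysosomes that takes part in uptake of low-density lipoprotein. The liver is the main organ that makes cholesterol and clears it from blood, and the kinase complex mTORC1, which temsirolimus inhibits, is known to promote the activity of SREBP factors.

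The stretch before a gene's start is where SREBP-2 and its partner NF-Y bind, and NF-Y recognises the letters CCAAT. Promoters of 300 bases (250 before to 50 after the start, RefSeq, assembly GRCr8) were listed for 6 of the 7 genes, and Sqle was not among them. The 3 shown are those of the genes that the results below turn on, written 5′ to 3′ on the strand of the gene, with CCAAT or its reverse complement ATTGG in capitals. Idi1 lies at chr17:66547475-66547774 (minus strand), Srebf2 at chr7:115543057-115543356 (plus strand) and Tmem97 at chr10:63945310-63945609 (minus strand).
Idi1: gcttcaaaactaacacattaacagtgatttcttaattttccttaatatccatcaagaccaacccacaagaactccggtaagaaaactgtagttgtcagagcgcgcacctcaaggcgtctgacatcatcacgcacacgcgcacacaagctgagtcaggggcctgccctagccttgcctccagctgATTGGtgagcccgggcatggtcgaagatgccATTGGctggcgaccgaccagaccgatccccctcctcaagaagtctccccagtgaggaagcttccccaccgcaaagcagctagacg
Srebf2: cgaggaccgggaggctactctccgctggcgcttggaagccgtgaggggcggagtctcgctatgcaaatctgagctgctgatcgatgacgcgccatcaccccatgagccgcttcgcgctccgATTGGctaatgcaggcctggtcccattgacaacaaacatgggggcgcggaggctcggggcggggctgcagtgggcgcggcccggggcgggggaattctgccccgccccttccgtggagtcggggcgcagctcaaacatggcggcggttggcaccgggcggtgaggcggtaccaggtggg
Tmem97: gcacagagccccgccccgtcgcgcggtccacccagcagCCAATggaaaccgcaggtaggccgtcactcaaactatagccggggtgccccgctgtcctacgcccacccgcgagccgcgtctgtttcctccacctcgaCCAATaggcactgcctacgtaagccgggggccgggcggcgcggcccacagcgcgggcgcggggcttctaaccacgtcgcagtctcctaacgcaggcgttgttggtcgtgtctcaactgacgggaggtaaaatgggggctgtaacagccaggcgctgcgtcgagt
Idi1 and Tmem97 held 2 such matches each and Srebf2 held 1. A match on either strand was present in 6 of the 6 promoters, in 10 of 13 listed promoters of other genes of cholesterol synthesis and in 37.49% of 33469 promoters of the same length. The sterol regulatory element TCACNCCAC, searched on both strands, was in 0 of the 6, in 0 of the 13 and in 1.117% of all. Only this exact string was searched, so elements that differ from it by a letter were not counted. The E-box CACGTG was in 1 of the 6, that of Insig1, and in 6.418% of all. A match in letters is a description of this window only.

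Values below are the deposited RMA signals on the log2 scale, and changes are differences on that scale with their standard errors. The fit, made per tissue in limma, held a mean for every group and terms for the array set, the pair of array plates on which 2 of the 4 rats of each group were processed. Sorafenib alone was set against F68/PG/PEG400 and sunitinib alone against water, in rats given TEM_vehicle, 4 rats against 4. For temsirolimus alone, its difference from TEM_vehicle was taken with water and with F68/PG/PEG400 and the mean of both was tested, 8 rats against 8. A gene passed the test when its Benjamini-Hochberg adjusted p over the 14218 genes was under 0.05. The p-values measure the spread between single rats.

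Some arrays stood apart from those of their group. The heart of rat 6M68 (temsirolimus then sorafenib, 1 h) had a mean signal of 13.79 over 15 hepatocyte markers, where the median of 96 hearts was 6.30. At 6 h after temsirolimus, each of the 4 groups of hearts held rats with raised hepatocyte markers, up to 9.97 with sorafenib, 10.96 with sunitinib, 10.30 with F68/PG/PEG400 and 10.45 with water. At 24 h after temsirolimus they reached 9.497 with sorafenib, 11.32 with sunitinib and 11.57 with F68/PG/PEG400. The bone marrow of rat 4M45 (temsirolimus then F68/PG/PEG400, 6 h) had the lowest erythroid and neutrophil markers of its tissue, 11.56 and 12.21, where the medians were 12.69 and 13.41. Its macrophage and proliferation markers were also the lowest, 8.921 and 10.76, and its hepatocyte and cardiac markers the highest, 5.912 and 5.716. The mean shift of its signal distribution from the average of its tissue was 0.358, where the next largest was 0.0839. The authors name this array as a potential outlier. The livers of rats 7M78 (sunitinib, 24 h) and 4M48 were also set aside in alternative fits. The liver of 7M78 had the lowest hepatocyte, macrophage and endothelial markers of its tissue, 13.79, 8.803 and 8.154. Its cardiac markers were the highest, 6.261. The shift of its signal distribution was 0.4343, where the next largest was 0.1189. Hearts otherwise carried cardiac markers at a median of 14.16 and livers hepatocyte markers at a median of 14.26, as their labels say. Median signals of whole arrays lay between 6.52 and 6.64 in bone marrow, between 6.88 and 7.06 in heart and between 6.82 and 6.96 in liver.

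All 7 genes had their highest signal in the liver. In the 24 rats per tissue that received vehicles only, the signal of Insig1, which restrains SREBP activation, was 12.37 ± 0.50 in liver, 9.42 ± 0.17 in heart and 9.07 ± 0.11 in bone marrow (SD, n = 24 each, same probe set in each tissue). Srebf2 had 9.96 ± 0.19 in liver, 8.93 ± 0.15 in heart and 8.86 ± 0.14 in bone marrow, so the 2 tissues outside the liver lay within 1 SD of each other. Among the enzymes, Fdps had signals of 13.79 ± 0.15 in liver, 10.84 ± 0.18 in bone marrow and 10.22 ± 0.16 in heart. Signals of different probe sets do not rank genes against each other.
Idi1 had 11.47 ± 0.45 in liver, 9.28 ± 0.18 in bone marrow and 7.72 ± 0.30 in heart. Sqle had 10.25 ± 0.51 in liver, 8.83 ± 0.17 in bone marrow and 7.16 ± 0.28 in heart. Lss had 9.56 ± 0.40 in liver, 7.74 ± 0.16 in heart and 7.30 ± 0.10 in bone marrow (in the liver this is not the probe set on which Lss was compared between treatments). Tmem97 had 11.82 ± 0.20 in liver, 9.79 ± 0.17 in bone marrow and 8.33 ± 0.22 in heart. The lowest liver signal lay above the highest of the other tissues for 6 of the genes. The exception was Sqle, whose lowest liver signal was 9.001 and whose highest bone marrow signal was 9.285. No test was made, because the arrays of the 3 tissues have different distributions of signal. The spread among rats of a group differed between genes and tissues. The pooled SD within groups was 0.48 in liver, 0.38 in heart and 0.32 in bone marrow for Idi1, and 0.49, 0.31 and 0.19 in these tissues for Sqle. For Fdps it was 0.21 in liver, 0.26 in heart and 0.36 in bone marrow. These SDs include arrays that stand apart. Fdps had 7.65 in the bone marrow of rat 4M45, where the others of its group had 10.50 to 10.89. It had 12.46 in the heart of rat 6M68, where the others had 10.22 to 10.44. In the vehicle rats the SD of Fdps was 0.15 in liver, 0.16 in heart and 0.18 in bone marrow.

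**Figure D1:**
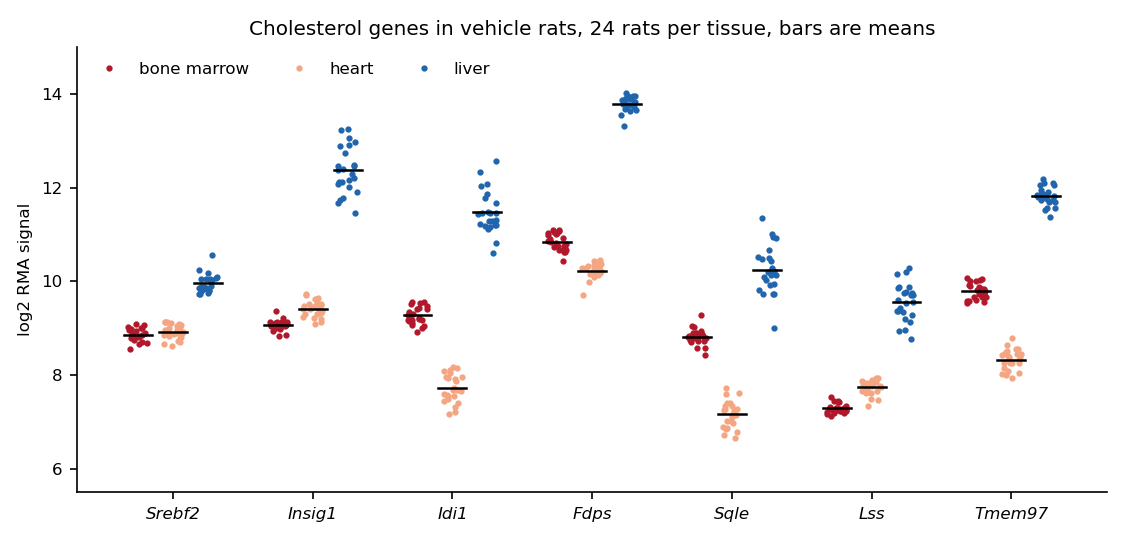
log2 RMA signal (vertical axis) of 7 genes of cholesterol synthesis and uptake in bone marrow, heart and liver of the vehicle rats; each point is 1 rat (24 per tissue, 1 probe set per gene throughout) and bars are means. Each gene is highest in the liver, with Fdps at 13.79 ± 0.15 and Insig1 at 12.37 ± 0.50 there.

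In the heart 6 h after sorafenib alone, Idi1, Sqle and Srebf2 fell and none of the 7 genes rose. Those that fell are the gene of the factor itself and enzymes of an earlier and a later step of the pathway. Genes that fell were 1.77% of all genes in this comparison. The median change was -0.38 over the 7 genes and -0.03 over all genes.
Srebf2 had 8.39, 8.36, 8.30 and 8.25 in hearts of sorafenib rats, against 8.83, 8.72, 9.03 and 8.92 after F68/PG/PEG400. Every sorafenib heart lay below every vehicle heart. Here and in the comparisons below, how many of all genes had groups without overlap is not given, so a lack of overlap only describes the values. The change was -0.55 ± 0.087 (adjusted p = 1.3e-05), with -0.40 and -0.70 in array sets 1 and 2. Idi1, the isomerase, had 6.52, 6.26, 6.81 and 6.62 in sorafenib hearts, against 7.46, 7.40, 8.05 and 7.97 after the vehicle. Here too the groups did not overlap. The change was -1.17 ± 0.249 (adjusted p = 0.00228), or -1.05 and -1.29 in the sets. Sqle, the epoxidase, had 6.10, 6.24, 6.42 and 6.37 in sorafenib hearts, against 6.89, 6.65, 7.59 and 7.34 after the vehicle, again without overlap. Its change was -0.83 ± 0.214 (adjusted p = 0.0147), or -0.60 and -1.07 in the sets.
With 1 rat of every group left out in turn, Srebf2 passed in 4 of 4 fits (adjusted p 0.000295 to 0.00192), while Idi1 and Sqle passed in 2 of 4, with adjusted p up to 0.0609 and 0.241 in the fits without replicates 1 or 3. The other 4 genes did not pass. Tmem97 had 7.77, 7.67, 8.02 and 8.05 after sorafenib, against 8.26, 7.93, 8.45 and 8.38 after the vehicle, a change of -0.38 ± 0.233 (adjusted p = 0.392). Lss, Insig1 and Fdps had changes of -0.13, -0.07 and -0.05.

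The same 3 genes were lower when sorafenib was given on top of temsirolimus, in rats that share no array with the comparison above. Genes that fell were 1.77% of all genes there as well. Srebf2 had 8.53, 8.58, 8.60 and 8.44 in hearts after temsirolimus then sorafenib, against 8.71, 8.89, 8.98 and 8.89 after temsirolimus then F68/PG/PEG400, and the groups did not overlap. The change was -0.33 ± 0.087 (adjusted p = 0.0247). Idi1 had 6.50, 6.94, 6.63 and 6.27 with sorafenib, against 7.54, 7.86, 8.01 and 6.91 without it, so that 1 rat on each side overlapped, and a change of -0.99 ± 0.249 (adjusted p = 0.0151). Sqle had 6.30, 6.54, 6.21 and 5.88 with sorafenib, against 6.93, 7.12, 7.35 and 6.79 without it, with no overlap and a change of -0.82 ± 0.214 (adjusted p = 0.0222).
The changes had the same sign in both array sets, -0.24 and -0.41 for Srebf2, -0.98 and -1.01 for Idi1 and -0.61 and -1.03 for Sqle. With 1 rat of every group left out, each of the 3 passed in 1 of 4 fits, with adjusted p up to 0.352 for Srebf2. Srebf2 was also lost without the heart of rat 4M46, a rat without sorafenib that had the most macrophage signal of all hearts (-0.32, adjusted p = 0.128), while Idi1 then had -1.25 (adjusted p = 0.00369). Without the heart of rat 6M68, which belongs to another time and enters through the shared estimate of the spread, Tmem97 (-0.59, adjusted p = 0.0407) and Fdps (-0.32, adjusted p = 0.0492) passed as well. Tmem97 had 7.92, 8.17, 8.14 and 7.85 with sorafenib, against 8.17, 8.49, 8.42 and 9.35 without it, the last being rat 4M46. Changes of Tmem97 and Fdps without the heart of 4M46 or with hepatocyte markers as a covariate are not given. No gene of the 7 had an interaction of temsirolimus with an oral drug that passed in any tissue or at any time. For sorafenib at 6 h in the heart it was 0.17 ± 0.353 for Idi1, 0.01 ± 0.303 for Sqle and 0.22 ± 0.123 (adjusted p = 0.555) for Srebf2. The rats given both vehicles are also the controls of sorafenib alone. Against them, temsirolimus then sorafenib gave changes of -1.13 for Idi1, -0.88 for Sqle and -0.34 for Srebf2. All 3 passed, where 0.513% of genes fell. With 1 rat of every group left out, Idi1 and Sqle passed in 2 of 4 fits. Srebf2 passed in 0 of 4 (adjusted p 0.0631 to 0.231).

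**Figure D2:**
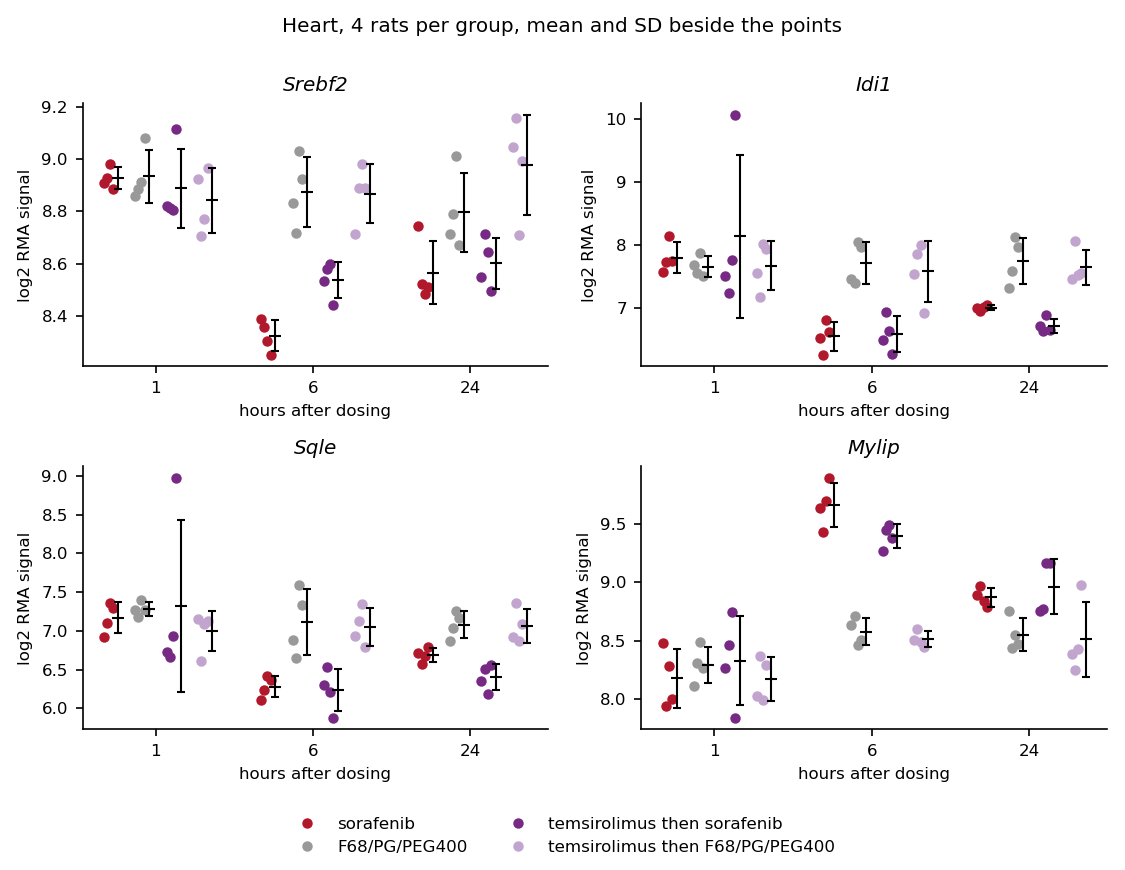
log2 RMA signal in the heart (vertical axis) against hours after dosing for Srebf2, Idi1, Sqle and Mylip; points show single rats, with their mean and SD (n = 4) beside them. At 6 h the hearts after sorafenib alone lie below the F68/PG/PEG400 hearts in Srebf2, Idi1 and Sqle and above them in Mylip, and the single high point at 1 h is rat 6M68.

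The changes of Srebf2 and Idi1 differed between times. At 1 h after sorafenib alone, when 1.81% of genes passed in either direction, Idi1 had a change of 0.14, Sqle of -0.11 and Srebf2 of -0.01. At 24 h, when 0.352% passed, none of the 7 genes did. The F test of whether the sorafenib change differed between the 3 times passed for Srebf2 (adjusted p = 0.0134) and Idi1 (adjusted p = 0.0366) and not for Sqle (adjusted p = 0.236), where 5.65% of genes passed.
At 24 h, Idi1 had 7.00, 6.95, 7.01 and 7.04 in sorafenib hearts, against 7.32, 7.58, 8.12 and 7.97 after the vehicle. The groups did not overlap, but the change of -0.75 ± 0.249 did not pass (adjusted p = 0.345). It passed without the heart of rat 6M68 (-0.75, adjusted p = 0.0321). Sqle had 6.72, 6.58, 6.67 and 6.79 after sorafenib, against 6.87, 7.03, 7.26 and 7.16 after the vehicle, a change of -0.39 (adjusted p = 0.874).
On top of temsirolimus at 24 h, Idi1 and Srebf2 fell, where 0.739% of genes fell. Idi1 had 6.71, 6.64, 6.88 and 6.65 with sorafenib, against 7.45, 8.06, 7.52 and 7.56 without it (-0.93, adjusted p = 0.049). Srebf2 had 8.55, 8.71, 8.65 and 8.50 with sorafenib, against 9.05, 9.15, 8.71 and 8.99 without it (-0.37, adjusted p = 0.0123). Each passed in 1 of the 4 fits with a rat of every group left out, and Sqle did not pass (-0.66, adjusted p = 0.139). Against the rats given both vehicles, Idi1 had -1.03 (adjusted p = 0.0225), where 0.57% of genes fell. At 1 h on top of temsirolimus, Insig1 had a change of 0.62 and Tmem97 of 0.70, neither of which passed, and they were 0.05 and 0.14 without the heart of rat 6M68.

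Around these genes, the wider pathway was read from lists of its genes in the heart 6 h after sorafenib alone. Of 15 measured genes of cholesterol synthesis other than the 7, 0 passed in either direction, nor did any of 6 genes of SREBP control, 7 of cholesterol export or 12 of fatty acid synthesis. At an unadjusted p under 0.05 these lists held 0, 0, 2 and 0 genes in limma, where 18.3% of all genes had such a p. The heart of rat 6M68 enters these tests through the shared estimate of the spread, and counts of the lists without it are not given. Among 7 genes of uptake and transfer, 1 rose and 0 fell, where 1.22% of all genes rose. The one that rose was Mylip, also called IDOL, a ubiquitin ligase that limits uptake of lipoproteins. Mylip had 9.63, 9.43, 9.69 and 9.89 in sorafenib hearts, against 8.64, 8.71, 8.46 and 8.51 after F68/PG/PEG400, so it was higher in 4 of 4 rats than in any vehicle rat. Its change was 1.08 ± 0.152 (adjusted p = 9.1e-07). On top of temsirolimus, Mylip had 9.27, 9.45, 9.49 and 9.38 with sorafenib, against 8.51, 8.61, 8.50 and 8.45 without it, a change of 0.88 (adjusted p = 0.000132).
Macrophage markers moved with these changes. Their mean signal over 8 of 9 listed genes was 8.22 to 8.37 in sorafenib hearts, against 8.51 to 8.84 after the vehicle at 6 h, and 8.26 to 8.46 against 8.68 to 10.08 on top of temsirolimus. At 24 h it was 7.53 to 7.92 after sorafenib, against 8.45 to 9.09. Their part in the results was not tested. Cardiac markers, 11 of 12 listed, had 14.13 to 14.22 after sorafenib, against 14.13 to 14.21 after the vehicle at 6 h. Hepatocyte markers had 5.87 to 6.85, against 6.11 to 6.42. With the hepatocyte level as a covariate, Idi1 had a change of -1.17, Sqle of -0.84 and Srebf2 of -0.55 after sorafenib alone, and all 3 passed. On top of temsirolimus at 6 h, hepatocyte markers had 6.09 to 9.97 with sorafenib, against 6.04 to 10.30 without it. With the covariate Idi1 had -0.92 (adjusted p = 0.000632), Sqle -0.76 (adjusted p = 0.00191) and Srebf2 -0.32 (adjusted p = 0.0243) there. At 24 h on top of temsirolimus the markers had 6.03 to 9.497, against 6.15 to 11.57, and with the covariate Idi1 had -0.91 (adjusted p = 0.00101), Srebf2 -0.37 (adjusted p = 0.00867) and Sqle -0.64 (adjusted p = 0.0199).

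In the other tissues none of the 7 genes passed at 6 h after sorafenib alone. In bone marrow 0.0211% of genes passed. How many of all genes had groups without overlap there is not given, so the values that follow are a description. Idi1 had 8.76, 8.91, 8.73 and 8.91 after sorafenib, against 9.18, 9.29, 9.18 and 9.26 after F68/PG/PEG400 (-0.40, adjusted p = 0.615). Sqle had 8.49 to 8.73 against 8.83 to 8.94 (-0.30), Tmem97 had 9.24 to 9.51 against 9.55 to 9.67 (-0.25) and Fdps, at most 10.58 after sorafenib and at least 10.68 after the vehicle (-0.34), passed without the array of rat 4M45 (adjusted p = 0.0413). Srebf2 had a change of -0.04. In the liver, where 0.225% passed, the 7 changes lay between -0.16 and 0.19. The difference between tissues was tested within rats. The change of Srebf2 was higher in bone marrow than in heart by 0.51 ± 0.124 (adjusted p = 0.0265), where 0.633% of genes passed, and no other gene of the 7 differed between tissues for sorafenib at any time by that test.

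After sunitinib alone, Srebf2 fell in the heart at 6 h and no other of the 7 genes passed, where 1.34% of all genes fell. Srebf2 had 8.74, 8.43, 8.62 and 8.68 in hearts of sunitinib rats, against 9.13, 9.09, 8.92 and 9.05 after water, with no overlap. The change was -0.43 ± 0.087 (adjusted p = 0.00748), or -0.53 and -0.34 in the array sets, and it passed in 2 of the 4 fits with a rat of every group left out. Idi1 (-0.31, adjusted p = 0.507) and Sqle (-0.24, adjusted p = 0.55) did not pass. Mylip rose beside it, with 8.74, 9.43, 9.34 and 8.73 after sunitinib, against 8.44, 8.75, 8.14 and 8.60 after water (0.58, adjusted p = 0.0281). The groups of Mylip overlapped. On top of temsirolimus, Srebf2 had a change of -0.16 and none of the 7 genes passed, where 0.197% of genes did. Against rats given both vehicles, temsirolimus then sunitinib gave -0.37 for Srebf2 (adjusted p = 0.0293), where 0.232% of genes fell, and this was lost in 4 of 4 fits with a rat of every group left out. At 24 h, when 3.58% of genes passed after sunitinib alone, none of the 7 did. Abca1, the transporter that exports cholesterol from cells, had -1.72 ± 0.417 (adjusted p = 0.0165) and the SREBP protease gene Mbtps2 had -0.38 (adjusted p = 0.0236). Sunitinib and sorafenib were given at different doses in different vehicles, and their changes were not set against each other.

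In the liver 24 h after temsirolimus alone, Tmem97 fell and the other 6 genes did not pass, where 2.3% of all genes fell. Tmem97 had 11.08, 11.21, 11.17 and 11.20 after temsirolimus with water, against 11.75, 11.96, 12.11 and 11.82 after TEM_vehicle with water. With F68/PG/PEG400 it had 11.02, 11.26, 11.29 and 10.98 after temsirolimus, against 11.87, 12.19, 12.05 and 12.10 after TEM_vehicle. All 8 temsirolimus livers lay below all 8 vehicle livers. The change was -0.83 ± 0.085 (adjusted p = 1.03e-10), with -0.75 in the water groups, -0.91 in the F68/PG/PEG400 groups and -0.80 and -0.86 in the array sets. It passed in 4 of 4 fits with a rat of every group left out.
Rats that also received an oral drug share no array with these. With sorafenib, Tmem97 had 11.13, 10.88, 11.14 and 10.92 after temsirolimus, against 11.86, 11.90, 11.91 and 11.50 after TEM_vehicle. With sunitinib it had 11.25, 11.32, 11.12 and 10.75 after temsirolimus, against 11.67, 11.18, 11.70 and 11.75 after TEM_vehicle. The groups overlapped only with sunitinib, where the vehicle liver at 11.18 is that of rat 7M78. Averaged over the oral drugs, the change was -0.62 ± 0.085 (adjusted p = 1.7e-06), where 1.88% of genes fell, and it was -0.51 and -0.74 in the sets. Against rats given both vehicles, temsirolimus then sorafenib gave -1.04 ± 0.121 (adjusted p = 1.39e-08), where 0.394% of genes fell, and temsirolimus then sunitinib gave -0.80 (adjusted p = 1.64e-05), where 0.957% fell.

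**Figure D3:**
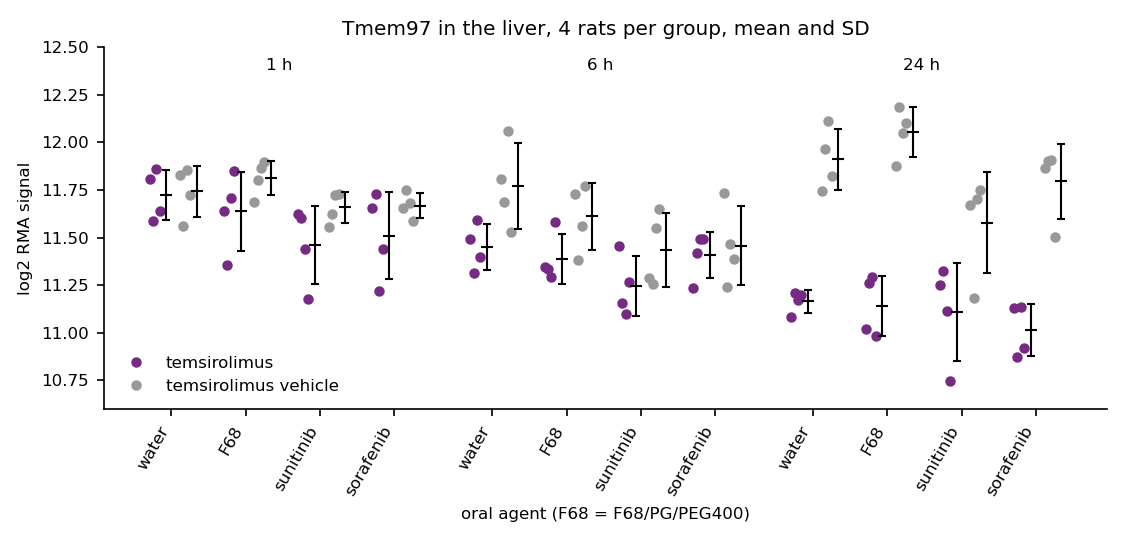
log2 RMA signal of Tmem97 in the liver (vertical axis) by oral agent (horizontal axis) at 1, 6 and 24 h; points show single rats and bars their mean and SD (n = 4), purple after temsirolimus and grey after its vehicle. At 24 h the temsirolimus livers lie at 11.32 or below with each oral agent, and 15 of 16 vehicle livers at 11.50 or above.

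The fall of Tmem97 was largest at 24 h and was seen in the liver. Its change was -0.10 at 1 h and -0.27 at 6 h after temsirolimus alone, when 0% of genes passed at either time. At 6 h the livers had 11.29 to 11.59 after temsirolimus, against 11.38 to 12.06 after TEM_vehicle. The F test between times passed (adjusted p = 0.000757), as it did for 0.148% of genes. At 24 h the change was higher in heart than in liver by 0.74 ± 0.173 (adjusted p = 0.0338) and higher in bone marrow than in liver by 0.76 ± 0.110 (adjusted p = 1.82e-05), tested within rats, where 0.295% and 0.95% of genes passed. With water, heart Tmem97 had 7.95, 8.11, 8.06 and 7.98 after temsirolimus, against 8.16, 8.32, 8.65 and 8.05. With F68/PG/PEG400 it had 7.97, 8.84, 8.27 and 8.61, against 8.26, 8.09, 8.52 and 8.48. These temsirolimus hearts with F68/PG/PEG400 include raised hepatocyte markers. The tissue difference with the hepatocyte covariate is not given. Hepatocyte markers had 14.11 to 14.32 in the temsirolimus livers with an oral vehicle, against 14.27 to 14.35 after TEM_vehicle, and their part in the result was not tested.
The remaining genes of the set showed smaller and mixed changes after temsirolimus alone at 24 h. Srebf2 had 0.21 (adjusted p = 0.197), Sqle -0.53 (adjusted p = 0.237), Lss -0.32, Fdps -0.25, Idi1 -0.14 and Insig1 -0.04. The median of the 7 genes was -0.25 and that of all genes 0.01. Sqle had its larger change in the F68/PG/PEG400 groups, with 9.30, 9.04, 9.73 and 8.51 after temsirolimus, against 9.92, 9.73, 10.93 and 10.28 after TEM_vehicle (-1.07 ± 0.327, adjusted p = 0.0851). It passed there without the liver of rat 7M78 (adjusted p = 0.0372) or of rat 7M76 (adjusted p = 0.0327). In the water groups the Sqle livers overlapped, with 9.04, 10.27, 10.07 and 10.61 after temsirolimus, against 9.73, 10.03, 10.48 and 9.74. Fdps after temsirolimus then sorafenib had -0.50 against both vehicles (adjusted p = 0.0939), which passed without the liver of rat 7M78 (adjusted p = 0.0428) or of rat 7M76 (adjusted p = 0.0129).
Of the 15 other genes of cholesterol synthesis, 1 fell after temsirolimus alone at 24 h. It was Pmvk, the kinase that makes mevalonate diphosphate, with 10.96, 10.62, 10.93 and 10.79 after temsirolimus with water, against 10.91, 11.32, 11.15 and 11.13, and 10.71, 10.57, 10.45 and 10.58 with F68/PG/PEG400, against 11.22, 11.07, 11.37 and 11.23. The change of Pmvk was -0.47 (adjusted p = 0.0341), and in the water groups 2 treated rats lay above the lowest vehicle rat. Of 12 genes of fatty acid synthesis, 4 fell and 0 rose: Pnpla3, a lipid droplet lipase (-2.03), Me1, the malic enzyme that supplies NADPH (-1.04), the desaturase Fads2 (-0.64) and Thrsp, which promotes lipogenesis (-0.49). None of the 6 genes of SREBP control, the 7 of uptake and transfer or the 7 of export passed. After temsirolimus then sorafenib, Pmvk (-0.74), Dhcr7, which makes cholesterol in the last step of one branch (-0.71), Acly, which makes cytosolic acetyl-CoA (-0.91), and Pnpla3 (-3.26) fell against both vehicles. Averaged over the oral drugs, Pnpla3 (-2.10) and Me1 (-0.80) fell and Mbtps1 rose by 0.24.

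In bone marrow, Tmem97 fell 24 h after sorafenib alone, where 3.31% of genes fell, and the other 6 genes did not pass. It had 9.48, 9.81, 9.66 and 9.62 in sorafenib rats, against 10.08, 10.01, 9.93 and 9.88 after F68/PG/PEG400, with no overlap. The change was -0.34 ± 0.095 (adjusted p = 0.0283), or -0.40 and -0.27 in the array sets. It passed in 1 of the 4 fits with a rat of every group left out, and the call was lost without the array-set terms (adjusted p = 0.0797), with quantile normalization repeated (0.263) and with the mean of the probe sets of Tmem97 (0.0918). On top of temsirolimus, Tmem97 had 9.63, 9.48, 9.32 and 9.41 with sorafenib, against 9.93, 9.97, 9.86 and 9.97 without it. These groups did not overlap either, and the change was -0.47 ± 0.095 (adjusted p = 0.00309), or -0.40 and -0.55 in the sets, where 1.09% of genes fell. It passed in 1 of the 4 fits with a rat of every group left out. Beside it, Mbtps2 fell after sorafenib alone (-0.26), and on top of temsirolimus Elovl6 fell (-0.37) and Mylip rose by 0.33. At 6 h on top of temsirolimus, Tmem97 had -0.41 (adjusted p = 0.02), where 8.12% of genes fell, but the rats without sorafenib include 4M45, and the call was lost without its array (-0.28, adjusted p = 1.0).
Set against rats given both vehicles at 24 h, Tmem97 fell by 0.52 on the log2 scale after temsirolimus then sorafenib (adjusted p = 0.00033), where 2.83% of genes fell, and this passed in 4 of 4 fits with a rat of every group left out. Some genes of the wider lists, which hold 15 measured genes of cholesterol synthesis and 12 of fatty acid synthesis, fell with it. The number of listed genes that did not pass is not given. Cyp51, the lanosterol demethylase, had 8.26, 7.73, 7.96 and 8.05 after temsirolimus then sorafenib, against 8.43, 8.65, 8.82 and 8.82 after both vehicles (-0.68, adjusted p = 0.0233). Msmo1, the sterol methyl oxidase, had -0.44, Tm7sf2, a sterol reductase, -0.34, Elovl6, a fatty acid elongase, -0.44 and Acaca, acetyl-CoA carboxylase, -0.32, and all passed. Among the 7 genes, Fdps (-0.41), Idi1 (-0.41), Insig1 (-0.34) and Sqle (-0.31) passed only without the array of rat 4M45, when 5 of 7 passed, where 8.71% of genes fell (adjusted p 0.000537, 0.0190, 0.00888 and 0.0287).
That array belongs to another time and enters through the shared estimate of the spread. Idi1 had 9.08, 9.07, 8.70 and 9.08 in these rats, against 9.17, 9.41, 9.56 and 9.43 after both vehicles, without overlap. Neutrophil markers, 5 of 11 listed, had 13.41 to 13.56 after temsirolimus then sorafenib, against 13.40 to 13.55 after both vehicles, and erythroid markers, 9 of 11 listed, 12.70 to 12.78 against 12.56 to 12.67. Their part in the result was not tested.

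**Figure D4:**
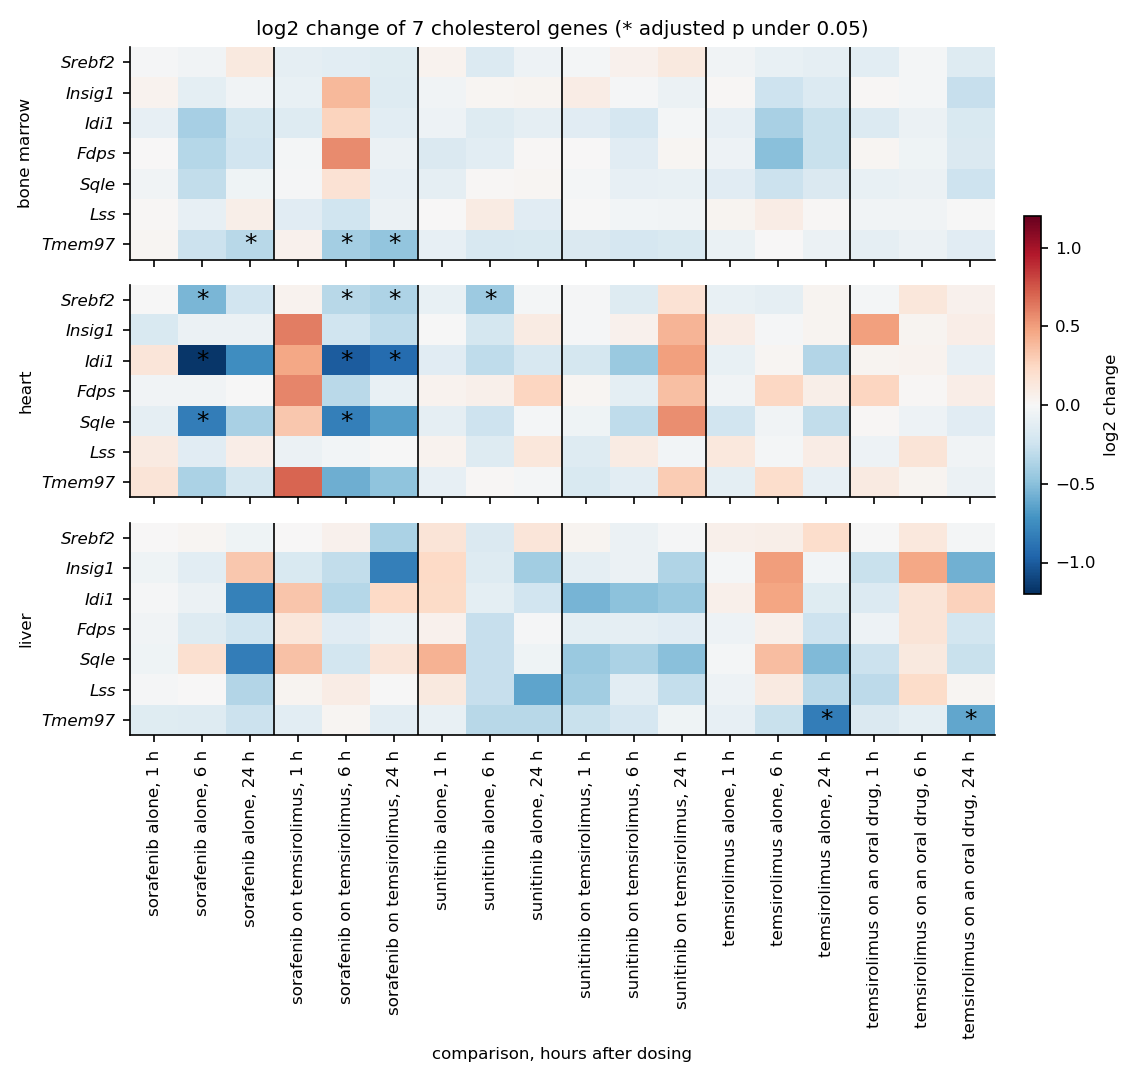
log2 change (colour) of 7 genes (rows) in 18 comparisons (columns) in bone marrow, heart and liver; an asterisk marks an adjusted p under 0.05. Marked cells lie in Tmem97 in bone marrow after sorafenib, in Srebf2, Idi1 and Sqle in the heart, and in Tmem97 in the liver at 24 h after temsirolimus.

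The other comparisons of a drug alone gave no call among the 7 genes. In the heart this holds for sunitinib at 1 h (0% of genes passed) and for temsirolimus at 1, 6 and 24 h (0.0141%, 0.183% and 0.317%). Idi1 had -0.35 (adjusted p = 0.434) there at 24 h after temsirolimus. Its parts were -0.61 with water (adjusted p = 0.18) and -0.10 with F68/PG/PEG400. Sqle had -0.57 with water (adjusted p = 0.141) and -0.02 with F68/PG/PEG400. The temsirolimus hearts with F68/PG/PEG400 include raised hepatocyte markers, and their part in this was not tested. In the liver no gene of the 7 passed after sorafenib at 1 and 24 h (0% and 0.0563% of genes passed) or sunitinib at 1, 6 and 24 h (0%, 0.12% and 9.99%). The sunitinib group at 24 h holds rat 7M78, whose array stands apart, and the share of genes without it is not given. Sorafenib livers at 24 h had 10.75, 10.56, 10.98 and 10.22 for Idi1, against 11.11, 11.29, 12.07 and 11.29 after F68/PG/PEG400, which did not overlap, yet the change of -0.81 ± 0.322 did not pass (adjusted p = 0.793). Sqle behaved alike, with 9.73, 9.21, 9.62 and 8.98 after sorafenib, against 9.92, 9.73, 10.93 and 10.28, and a change of -0.83 ± 0.327 (adjusted p = 0.793). The highest sorafenib rat of Sqle was level with the lowest vehicle rat at 9.73. On top of temsirolimus, the changes of Idi1 and Sqle at 24 h were 0.24 and 0.15. In bone marrow no gene of the 7 passed after sorafenib at 1 h (0% of genes passed), sunitinib at 1, 6 and 24 h (0%, 0% and 0.00703%) or temsirolimus at 1, 6 and 24 h (0%, 0% and 0.352%). In the 10 comparisons of a drug alone in which no gene passed in limma, 209 to 3191 genes had an unadjusted p under 0.05. Over the 23 such comparisons without a call among the 7 genes, 19 of 161 tests of these genes did (11.8%). At most 4 did in 1 comparison, and 8.86% of the tests of all genes did in these comparisons. The 3191 genes belong to temsirolimus alone in bone marrow at 6 h, whose treated rats include 4M45. Its part with F68/PG/PEG400, which holds that rat, had 4916 such genes and its part with water 540. Idi1, Sqle and Fdps had unadjusted p of 0.0072, 0.0051 and 0.0017 in limma there, and 0.95, 0.94 and 0.78 with water.
In the liver 6 h after sunitinib, the group held 1 rat far below the others. Rat 7M76 had 9.97 for Insig1, where the other 3 had 12.36 to 12.60, and 10.09 for Idi1, where they had 12.26 to 12.35. The median change of the 7 genes was -0.27 with it and 0.17 without it. At 24 h after sunitinib, Nr1h3, a sterol-activated factor that raises exporters, fell by 0.39 on the log2 scale (adjusted p = 0.0493) in a group that holds rat 7M78.

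In rats that received vehicles only, Insig1 in the liver was lower at 6 h than at 1 h, where 1.06% of genes fell. At 6 h it had 12.12, 12.47, 11.91 and 11.46 with water and 11.67, 12.40, 12.12 and 12.02 with F68/PG/PEG400, against 12.97, 12.92, 12.49 and 12.07 with water and 13.26, 13.06, 12.29 and 12.89 with F68/PG/PEG400 at 1 h. The hours overlapped, and the change was -0.72 ± 0.211 (adjusted p = 0.0418), which passed in 1 of 4 fits with a rat of every group left out. Mylip rose by 0.46 (adjusted p = 0.0382) between these hours. Tmem97 was higher in the liver at 24 h than at 6 h by 0.29 (adjusted p = 0.0284), where 2.06% of genes rose, and it too passed in 1 of 4 such fits. Srebf1, which encodes the factor of fatty acid synthesis, rose by 0.68 (adjusted p = 0.00811) over the same hours and Scap, the SREBP escort, had -0.48 (adjusted p = 0.00235). The arrays of different times were on different plates, so time and plate cannot be told apart.
The oral vehicles were also set against each other. F68/PG/PEG400 against water, in rats given TEM_vehicle, gave no call among the 7 genes in any tissue at any time. The share of genes that passed was 0% at 1, 6 and 24 h in heart and bone marrow and at 1 and 24 h in liver, and 0.106% at 6 h in liver. Where no gene passed in limma, 110 to 1325 had an unadjusted p under 0.05. In that liver comparison 3 of 12 genes of fatty acid synthesis rose, Elovl6 by 2.14, Fasn, the fatty acid synthase, by 1.40 and Acly by 0.89, while the median change of the 7 genes was -0.28.

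Variation of the 7 genes among rats of the same treatment and time was described by correlation. Correlations of deviations from the group means, with the array set taken off, were computed over 91 rats per tissue, 5 rats with an array that stands apart left out, and they are descriptions over arrays that share plates and dosing days. The median of the 21 pairs was 0.35 in liver, 0.31 in heart and 0.17 in bone marrow. Over all 96 rats it was 0.46 in liver, 0.49 in heart and 0.0094 in bone marrow, so the values and the order of liver and heart rest on those 5 rats. Idi1 and Sqle had the highest correlation in liver, 0.90, and in heart, 0.76, and in bone marrow it was 0.58 and the highest was that of Idi1 and Fdps, 0.71. Lss, the cyclase, was the least connected in bone marrow and heart, with -0.29 against Idi1 in the heart, while in liver it had 0.58 with Sqle. Lss was read there from another probe set than in the other tissues, and the correlation of its 2 probe sets over 96 arrays was 0.93 in liver, 0.27 in heart and -0.29 in bone marrow. The 2 probe sets of Idi1 correlated at 0.89 to 0.99 in the 3 tissues and those of Tmem97 at 0.53 to 0.89. Srebf2 rests on 1 probe set, since its other one had low signals (mean of 5.45 in bone marrow) and correlations of -0.08 to 0.19 with it.

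**Figure D5:**
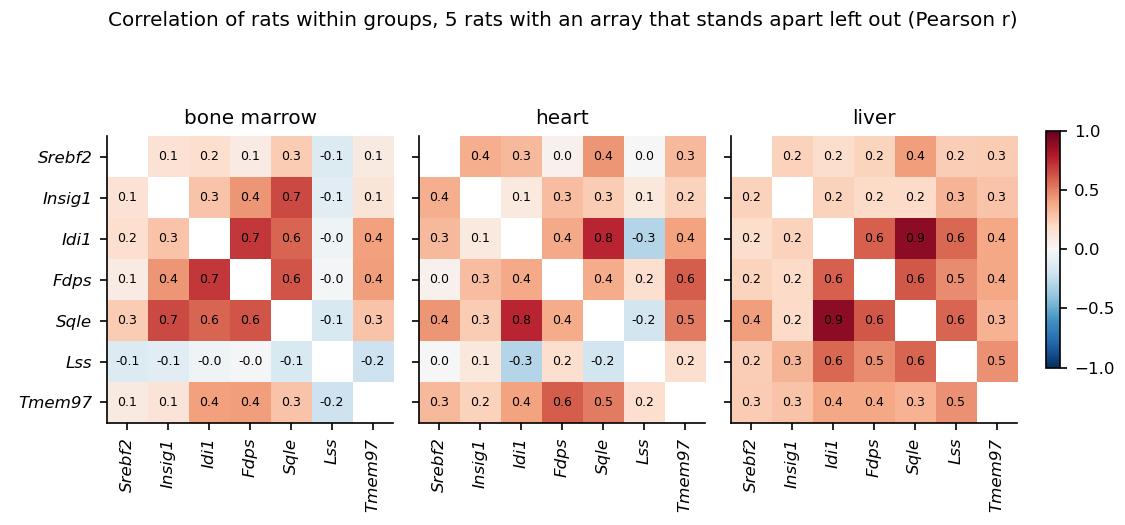
Pearson correlation (colour and number) of 7 genes over rats within groups in bone marrow, heart and liver, 91 rats each. Idi1 and Sqle reach 0.90 in the liver, and the pairs of Lss lie near or below 0 in bone marrow.

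Across the 24 group means of a tissue, the genes outside the pathway lists most like the mean of the 7 genes were Hspa5 (r = 0.82), the main chaperone of the endoplasmic reticulum, Ahsa1 (0.81), Hspa14 (0.81), P4ha1 (0.79) and Pdia6 (0.78) in bone marrow. In the heart they were Litaf (0.82), Tor2a (0.81), Rcc2 (0.81), Acsl5 (0.81) and Sat1 (0.80), and in the liver Tmed3 (0.84), Eprs1 (0.82), Rab13 (0.81), Tprg1l (0.81) and Cystm1 (0.80). The group means share plates, and these correlations describe likeness over 24 points. Within the lists the closest were Cyp51 in bone marrow (0.92), Msmo1 in heart (0.86) and Hsd17b7, a sterol reductase, in liver (0.90). Tmem97 itself had 0.40 with that mean in the liver and 0.90 in the heart.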

How the data were processed

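Expression was measured on 288 Affymetrix rat genome arrays, 1 per tissue of each of 96 rats. The authors made the deposited values from the scanned arrays by RMA, a background correction, quantile normalization and summary of probes, in log2 units; its version is not given in the sources used here. RMA forces arrays of a tissue toward the same distribution, so a change is relative to the other genes of the array. Precision is limited by how many rats were used, since arrays carry no depth. Of 31099 probe sets, 20832 were annotated to 1 symbol, 436 to several and 9831 were not listed, which left 14218 genes. Where a gene had more than 1 probe set, that with the highest mean signal in the tissue stood for it.

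R 4.3.3 with limma 3.58.1 was used, with 24 means of groups, 3 array-set terms (1 per time), moderated variances and Benjamini-Hochberg adjustment over genes at 0.05. Differences between tissues were fitted on the difference of 2 tissues within a rat. Replicate numbers only name rats and do not pair treatments. The genes and lists were chosen with earlier results of these data known. Besides the 7 genes, up to 6 list members with the largest change among those past the threshold and the 5 genes most like the 7 were named. Alternatives were a mean signal of at least 6, quantile normalization repeated, no array-set terms, the mean of all probe sets, each replicate number left out, arrays that stand apart left out, a term for arrays marked N2, a hepatocyte covariate and unblocked tissues. Leaving out the liver of rat 7M76 or the heart of rat 4M46 was added after seeing the data. The fit was tested on simulated data. Figures and tables were made with Python 3.11.15, numpy 2.4.6 and pandas 2.3.3.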

Additional observations from a re-analysis of the deposited data

Results flagged for a closer look

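The mean signal of the 7 genes was compared among the 4 rats of each of 72 groups, and chance alone sets 1 rat apart in about 1 group in 20. In 6 groups a rat was far from the others. In bone marrow 6 h after temsirolimus then F68/PG/PEG400, rat 4M45 had 8.091, where the others had 8.932 to 9.011. In the heart 1 h after temsirolimus then sorafenib, rat 6M68 had 10.17, where the others had 8.368 to 8.499; its hepatocyte markers had 13.79, where the median heart had 6.301. In the liver 6 h after sunitinib, rat 7M76 had 10.19, where the others had 11.70 to 11.74. The other 3 were hearts with smaller gaps. Rat 3M26 had 8.615 (others 8.562 to 8.569) 1 h after temsirolimus then water. Rat 6M66 had 8.084 (others 8.125 to 8.133) 24 h after temsirolimus then sorafenib. Rat 1M11 had 8.687 (others 8.353 to 8.397) 24 h after both vehicles with water.

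In 6 cases the change of a gene differed by test between times or tissues. Between 1, 6 and 24 h, the change after sorafenib in the heart differed for Srebf2 (adjusted p = 0.01342 in limma's F test) and Idi1 (adjusted p = 0.03655), and that of Tmem97 after temsirolimus in the liver differed too (adjusted p = 0.0007569). At 24 h after temsirolimus, the change of Tmem97 was higher in heart than in liver by 0.7356 and higher in bone marrow than in liver by 0.7591. The hearts with F68/PG/PEG400 in that comparison include arrays with raised hepatocyte markers. At 6 h after sorafenib, the change of Srebf2 was higher in bone marrow than in heart by 0.509.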

How the results depend on the processing

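Over 153 results there were 1555 alternative values. Of these, 1424 kept their direction and side of the threshold or stayed within the spread, and 57 values of counts or medians moved. The 27 results on single genes had 373 alternative values. Of those, 299 were kept, 71 no longer passed and 3 turned sign. All 3 reversals concern F68/PG/PEG400 against water in bone marrow of temsirolimus rats at 6 h, whose group holds rat 4M45: without its array Fdps had 0.04928 and Insig1 0.02668, against -0.67 and -0.40 with it, and with a rat of each group left out Fdps lay between -0.9663 and 0.04833. Among counts of the 7 genes that passed, leaving out the bone marrow of rat 4M45 gave 5 for temsirolimus then sorafenib at 24 h (1 with it) and 1 each (0 with it) for that treatment at 6 h, for sorafenib alone at 6 h, for temsirolimus alone at 24 h and for 24 h against 6 h in vehicle rats. Sorafenib alone at 24 h in bone marrow gave 0 without array-set terms and with quantile normalization repeated (1 in the report). In the heart, leaving out rat 6M68 gave 1 for sorafenib alone at 24 h and for 24 h against 1 h in vehicle rats (0 with it) and 2 for temsirolimus then sorafenib at 24 h (1 with it). The hepatocyte covariate gave the same 1 and 2 for both sorafenib comparisons at 24 h and 3 for temsirolimus then sunitinib at 6 h, which had 1, and 0 with the mean of all probe sets. In the liver, 24 h against 6 h gave 0 with the mean of all probe sets and 6 h against 1 h gave 0 without array-set terms (1 each in the report), and sunitinib alone at 24 h gave 1 with a mean signal of at least 6 (0 in the report). Leaving out rat 7M78 gave 2 for temsirolimus then sorafenib at 24 h and 1 for temsirolimus then sunitinib at 6 h (1 and 0 with it), and leaving out rat 7M76 also gave 2 for the first. The median of the 7 genes for sunitinib alone in the liver was 0.07185 with quantile normalization repeated at 24 h (-0.23 otherwise) and 0.1675 without rat 7M76 at 6 h (-0.27 in the report).

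With a rat of each group left out, the counts ran from 1 to 3 for sorafenib alone and from 0 to 2 for temsirolimus then sorafenib in the heart at 6 h (3 in the report for each). They ran from 0 to 2 for temsirolimus then sorafenib in the heart at 24 h and for sunitinib alone in the liver at 24 h, and from 1 to 2 for temsirolimus then sorafenib at 24 h in bone marrow and in liver. They ran from 0 to 1 for sunitinib alone in the heart at 6 and 24 h, for 24 h against 1 h in the heart, for sorafenib alone and temsirolimus alone in bone marrow at 24 h, for temsirolimus then sunitinib in the liver at 6 h and for both comparisons of hours in the liver, and from 0 to 0 for temsirolimus then sunitinib in the heart at 6 h. Medians lay between -0.3101 and -0.0651 for temsirolimus alone in bone marrow at 6 h, 0.02563 and 0.397 for temsirolimus alone in the liver at 6 h, -0.4957 and 0.328 for sunitinib alone in the liver at 6 h, and -0.4207 and 0.06517 at 24 h. With each such fit, fewer rats enter; the cause of other moves was not tested. Replicate numbers pair no treatments, and the rat is the block only between tissues: without that replicate block none of 27 counts between tissues moved. The number of rats per group limits the precision. Hmgcs1 was not analysed here, and Srebf2 rests on 1 probe set.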
